A study of Mus musculus with 10 samples.

Results

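Taf4b was followed here together with the other germline paralogues of TFIID and their widely expressed relatives in female germ cells of the mouse fetus. The 9 genes were taken by symbol from the deposited count and TPM tables: Taf4b with Taf4, Taf9b with Taf9, Taf7l with Taf7, Tbpl1 with Tbp, and Taf12. They are 9 of the 55536 genes in the count table, and each symbol matched 1 row. The study asked how female germ cells change when Taf4b is missing. Cells were sorted by fluorescence from dissociated gonads of female fetuses at E14.5 (days of embryonic development) and their bulk RNA was sequenced in 10 libraries. There were 4 Taf4b-deficient, 4 Taf4b-heterozygous and 2 Taf4b-wildtype libraries, with a strain label of C57BL/6. The parents were homozygous for an Oct4-EGFP transgene and heterozygous for the Taf4b-deficiency mutation, so fetuses of all 3 genotypes carried the reporter used for sorting. By their labels deficient females are infertile while heterozygous and wildtype females are fertile, and "fertile" below means the 6 libraries of the latter. Where a group's libraries are listed, they stand in order of replicate number. The labels leave out which exons the mutation alters, and the count of Taf4b covers the whole gene. Nothing in the labels ties each library to an animal of its own, so the tests measure the spread between libraries, which may be technical. Because the RNA is bulk, fewer cells expressing a gene and less RNA per cell cannot be told apart.

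TFIID is the general transcription factor that binds core promoters and starts assembly of the RNA polymerase II machinery. It is built from the TATA-binding protein Tbp and a set of Tbp-associated factors (Tafs), several of which pair through histone folds. Some subunits have a paralogue that is enriched in the germ line, among them Taf4b in ovary and testis and Taf7l in testis, and Taf4b is needed for a lasting reserve of oocytes. At E14.5 female germ cells are shutting down pluripotency genes and entering meiotic prophase, not all at the same hour.

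Library totals ran from 28949924 to 44166320 reads, and 20317 genes passed the filter on low counts, all 9 members among them. CPM values are counts scaled to library size with TMM. Germ cell markers summed to 5061 to 5756 CPM in every library, against 13.8 to 33.9 CPM for pregranulosa markers and 4.25 to 11.6 CPM for stroma and mesothelium markers. The blood and macrophage markers summed to 15.4 to 21.4 CPM in deficient, 5.06 to 12.4 in heterozygous and 13.6 to 21.8 in wildtype libraries, and their part in the results below was not tested. Of the endothelial sum of 65.7 to 382 CPM nearly all was Pecam1, which early germ cells also express, whereas the endothelial gene Cdh5 had 1 to 9 counts. No marker of any list was at 0 in every library. In 3 libraries (deficient replicates 2 and 4 and heterozygous replicate 3) the gene Gm23935 stood at 87.4 to 454 CPM, against 4146 to 5068 CPM in the other 7. Heterozygous replicate 1 and deficient replicate 3 were the least advanced towards meiosis by the stage score used below. The stage slopes of Taf7l, Taf9b, Taf12 and Taf7 are given with and without them. So are the correlations with stage of the ratios Taf7l over Taf7 and Taf9b over Taf9. Most other results on stage, among them those of genes outside the 9 members, are given only with both libraries included.

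All 9 members are protein-coding genes in the GENCODE M21 annotation, and positions are on GRCm38. Taf4b lies at chr18:14783245-14900359 (plus strand, 15 exons) and Taf4 at chr2:179912152-179976646 (minus strand, 15 exons). Taf9b at chrX:106206883-106221158 (minus strand, 8 exons) and Taf7l at chrX:134460118-134476490 (minus strand, 13 exons) are both X-linked. Taf7 lies at chr18:37640491-37644204 (minus strand, 2 exons), Tbpl1 at chr10:22703879-22731938 (minus strand, 7 exons), Tbp at chr17:15499888-15528379 (plus strand, 10 exons) and Taf12 at chr4:132274375-132295766 (plus strand, 7 exons).

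Taf9 lies at chr13:100651579-100656060 (plus strand, 3 exons), and 73.8% of its exon bases are also exon of Ak6 on the same strand. Its deposited counts were 1 to 16 per library while its TPM values, made by another tool, were 10.6 to 22.9, and Ak6 had 730 to 1463 counts. The split of reads between the 2 genes is therefore uncertain, and count-based results on Taf9 rest on almost no reads. Exons of Pdcd2 on the opposite strand cover 19.0% of the exon bases of Tbp, and exons of Slc2a12 cover 12.4% of those of Tbpl1. The strand setting of the counting is not given in these sources. The TPM of Tbp spread from 22.7 to 56.8 over the libraries where its CPM spread only from 76.4 to 107, so levels of Tbp depend on the table used.

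On the TPM scale, which corrects for gene length, the germline paralogues ranked above their relatives by fertile mean in 3 of the 4 pairs. Only Taf4b was above its relative in every fertile library. Taf7l was above Taf7, and Taf9b above Taf9, in 5 of 6 each. In fertile libraries Taf7l had the highest mean TPM of the 9 genes, 260 ± 175 (SD, n = 6), followed by Taf4b at 72.3 ± 17.4. Next came Taf7 at 41.9 ± 9.51, Tbp at 34.1 ± 12.3, Taf12 at 32.3 ± 8.71, Taf9b at 30.1 ± 17.5 and Tbpl1 at 29.4 ± 1.54 TPM. Taf9 followed at 15.5 ± 3.21, and Taf4, the widely expressed relative of Taf4b, was lowest at 2.77 ± 0.445 TPM. Between neighbours in this order, every fertile library kept Taf4b above Taf7, Tbpl1 above Taf9 and Taf9 above Taf4. Taf7l exceeded Taf4b in 5 of 6 fertile libraries. The neighbours from Taf7 down to Tbpl1 kept their order in only 3 or 4 of 6, so neighbours there were not separated beyond their spread. Further apart in the order, Taf7 was above Taf12 and above Tbpl1 in every fertile library.

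**Figure D1:**
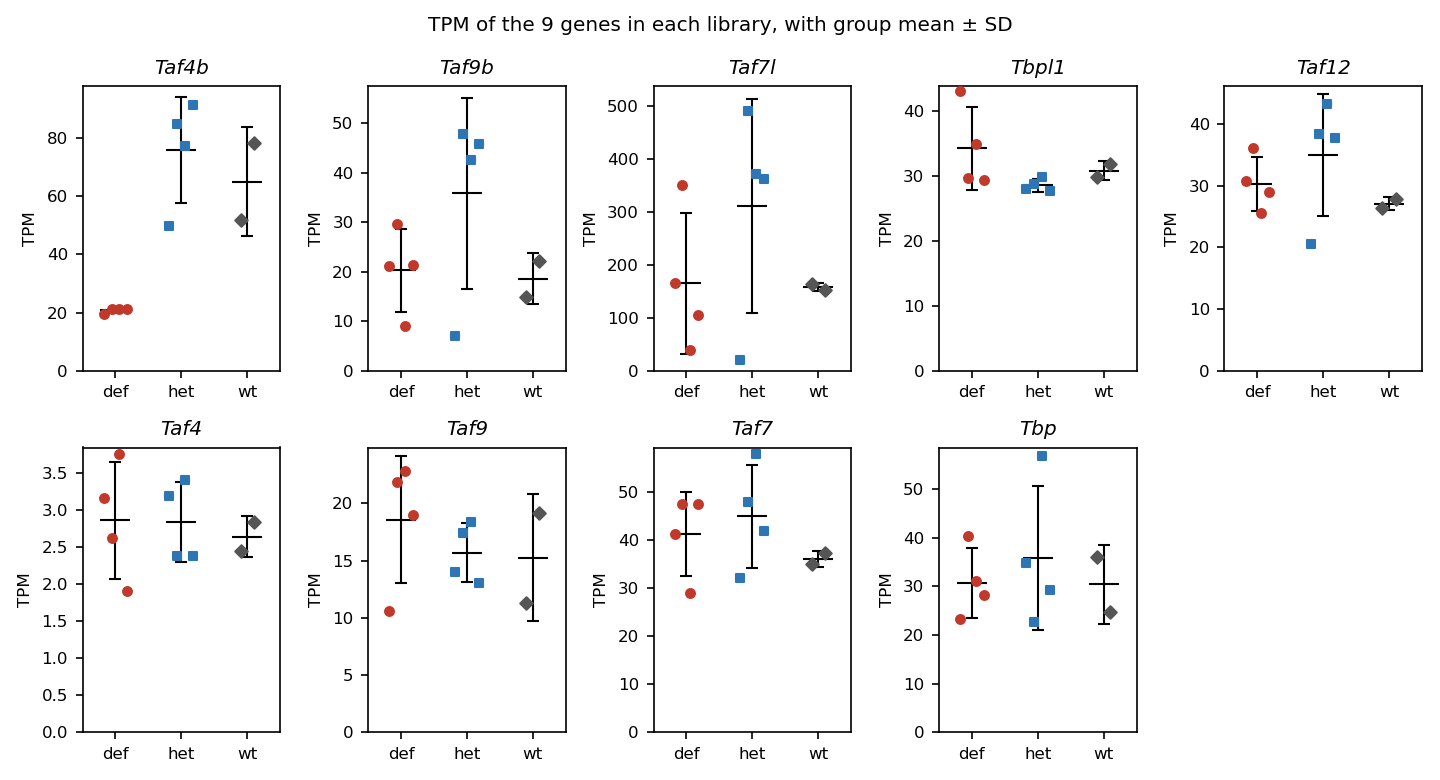
TPM (vertical axis, from 0, own scale in each panel) of each of the 9 genes in deficient (def), heterozygous (het) and wildtype (wt) libraries, 1 point per library, with group mean ± SD. The 4 deficient points of Taf4b lie at 19.6 to 21.4 TPM, below all fertile points, and heterozygous replicate 1 is the low point for Taf9b, Taf7l and Taf12.

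Taf4b, the gonad-enriched TFIID subunit that the mutation targets, fell in deficient libraries. The deficient libraries stood at 56.1, 62.1, 64.9 and 60.1 CPM. The heterozygous libraries stood at 144, 223, 195 and 234 CPM and the wildtype libraries at 152 and 207 CPM. All deficient libraries were below all fertile ones, a pattern without overlap in that direction shown by 0.546% of the tested genes (1.39% in either direction). The fitted change was -1.64 on the log2 scale (SE 0.16, edgeR adjusted p = 0.0117), 3.11-fold lower, which left 32.1% of the fertile level. Taf4b was the only member called and the only gene of 20317 called in this comparison (0.00492% of tested genes). The deficient libraries were also close to each other, with highest over lowest at 1.16 in CPM against 1.63 among fertile libraries.

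The fall was of the same size in each litter date: -1.68 on the log2 CPM scale among the 2 deficient and 2 fertile libraries of January 29, -1.67 between the single libraries of March 1, and -1.62 between 1 deficient and 3 fertile libraries of March 7. Leaving out any 1 deficient library or wildtype replicate 2 ended the call, with edgeR adjusted p between 0.0590 and 0.125 and a change of -1.50 to -1.66. Replicate number or litter date as a term also ended it, at changes of -1.66 and -1.64 (adjusted p = 0.0522 and 0.0665). So did TPM values, at -1.71 and -1.67 with pseudocounts of 0.1 and 1 (adjusted p = 0.0658 and 0.0754), and leaving out the 3 libraries low in Gm23935, at -1.65 (adjusted p = 0.847). The direction held under all 22 alternatives, over which the adjusted p ran from 3.77e-16 to 0.847.

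Heterozygous and wildtype libraries overlapped in Taf4b. The fitted difference, heterozygous against wildtype, was 0.15 on the log2 scale (95% interval -0.24 to 0.54, edgeR adjusted p = 0.868), and without wildtype replicate 1 it was -0.06. No member was called in this comparison, in which 0.00492% of all tested genes were. Against heterozygous libraries alone Taf4b was lower by a log2 change of -1.71 (SE 0.17, adjusted p = 0.0118), the only member called where 0.0148% of genes were (0.00984% higher and 0.00492% lower). That call was lost without any 1 of the deficient replicates or heterozygous replicates 2 or 4 (adjusted p 0.0587 to 0.0972). Against the 2 wildtype libraries the change of -1.56 (SE 0.19) missed the threshold at adjusted p = 0.113. In that comparison edgeR called 0 genes, or 0% (743 at an unadjusted p under 0.05), and DESeq2 called 1. Taf4b was past the threshold there without heterozygous replicate 1, at adjusted p = 0.00731.

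Taf4, the widely expressed histone-fold partner of Taf12, was not called higher where Taf4b was low. Its deficient libraries had 7.68, 6.61, 9.69 and 4.66 CPM, and its fertile ones 5.38 to 7.95 CPM with a median of 6.92. The groups overlapped, and the change of 0.09 on the log2 scale (95% interval -0.36 to 0.54, edgeR adjusted p = 0.959) was not called. Taf4b still exceeded Taf4 in TPM in every deficient library, by 5.70 to 11.2 times. In fertile libraries it did so by 15.6 to 38.4 times. The deficient ratios were all below the fertile ones, with a difference in log2 ratio of -1.77 (two-sided exact permutation p = 0.00476, the smallest that 4 against 6 libraries allow, and 0.0190 adjusted over the 4 pairs). Without the 3 libraries low in Gm23935 the difference was -2.13 and the adjusted p 0.190, with 2 deficient libraries left. Against heterozygous libraries alone the difference of -1.81 had an exact permutation p = 0.0286, the smallest that 4 against 4 allow, and 0.114 adjusted.

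**Figure D2:**
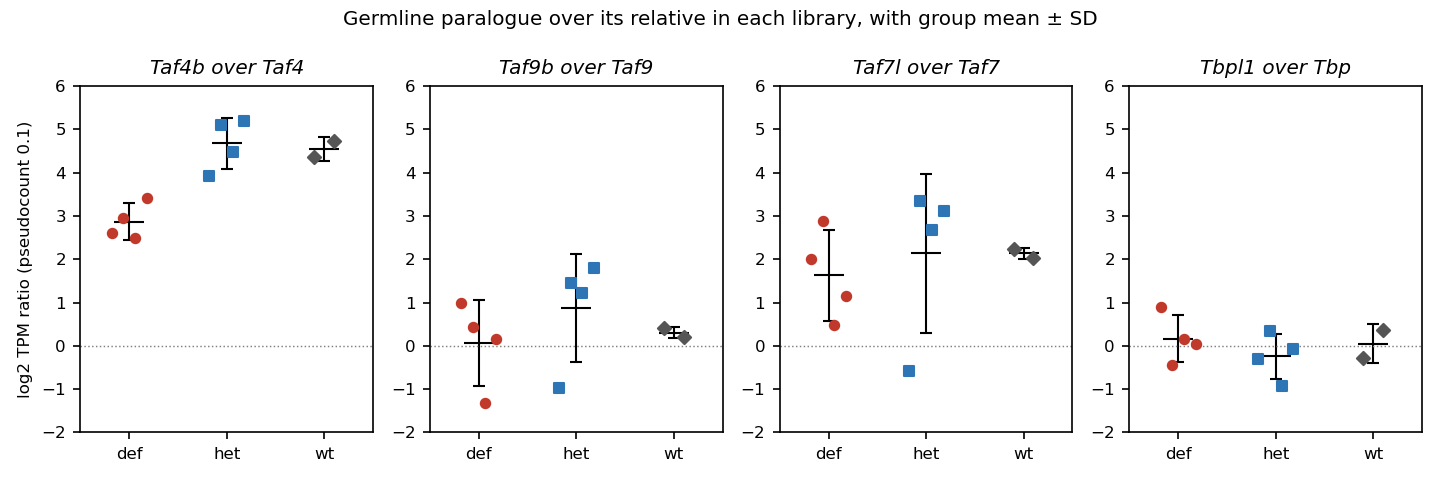
The log2 ratio of TPM (pseudocount 0.1, vertical axis, same scale in all panels) of each germline paralogue over its relative, 1 point per library with group mean ± SD, in deficient (def), heterozygous (het) and wildtype (wt) libraries. The groups are apart only for Taf4b over Taf4, and the dotted line marks equal TPM.

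The other 3 ratios did not differ by genotype beyond the spread between libraries. Taf9b over Taf9 differed by -0.62 on the log2 scale between deficient and fertile libraries, Taf7l over Taf7 by -0.51 and Tbpl1 over Tbp by 0.31, with adjusted exact permutation p-values of 0.495, 0.548 and 0.495. Leaving out 1 library moved these differences to between -0.95 (without heterozygous replicate 1) and -0.16 (without deficient replicate 3), between -1.05 and -0.13 (without the same 2 libraries), and between 0.07 (without deficient replicate 1) and 0.52 (without deficient replicate 2), none of them past the threshold. Taf7l exceeded Taf7 in 9 of 10 libraries, the exception being heterozygous replicate 1 at 0.664 times. Taf9b exceeded Taf9 in 8 of 10 libraries and Tbpl1 exceeded Tbp in 5 of 10. For Taf9 and Tbp these counts carry the limits of their shared exons.

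Among the remaining members, none was called for deficient against fertile, with edgeR adjusted p-values from 0.904 to 0.978. Taf7l, which can stand in for Taf7 in TFIID, had a change of -0.37 with a 95% interval of -1.75 to 1.01, and Taf9b, which can stand in for Taf9, had -0.27 (-1.16 to 0.62). Both values moved with single libraries: without deficient replicate 3 they were -0.05 and -0.04, and without deficient replicate 2 they were -1.06 and -0.54, not called in either case. The intervals were narrower for Taf7 at 0.08 (-0.25 to 0.40), Tbp at 0.16 (-0.06 to 0.37) and Taf12, the common partner of Taf4 and Taf4b, at 0.04 (-0.30 to 0.38). Taf9 stood at 0.47 (-0.68 to 1.61), on 1 to 16 counts. With the stage score as a covariate the changes of Taf7l and Taf9b turned to 0.31 and 0.23, still not called.

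Tbpl1, a relative of Tbp that does not bind the TATA box and is required in male germ cells, had the smallest p of the 8. Its deficient libraries stood at 58.1, 53.5, 65.1 and 51.4 CPM, the heterozygous ones at 49.0, 37.3, 45.6 and 41.8 CPM and the wildtype ones at 58.4 and 52.2 CPM. The deficient libraries were all above the heterozygous ones, as for 3.31% of tested genes, whereas the wildtype libraries lay within the deficient range. The change against fertile libraries was 0.22 (95% interval -0.03 to 0.47, adjusted p = 0.904). Against heterozygous libraries it was 0.39 (SE 0.14), with an unadjusted p = 0.0147 and an adjusted p = 0.379. Limma voom with sample weights called it at adjusted p = 0.0278, a tool that called 3012 genes in that comparison where edgeR called 3. In the same comparison Taf9b had a change of -0.70 and Taf7l of -0.80, with adjusted p = 0.545 and 0.647.

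**Figure D3:**
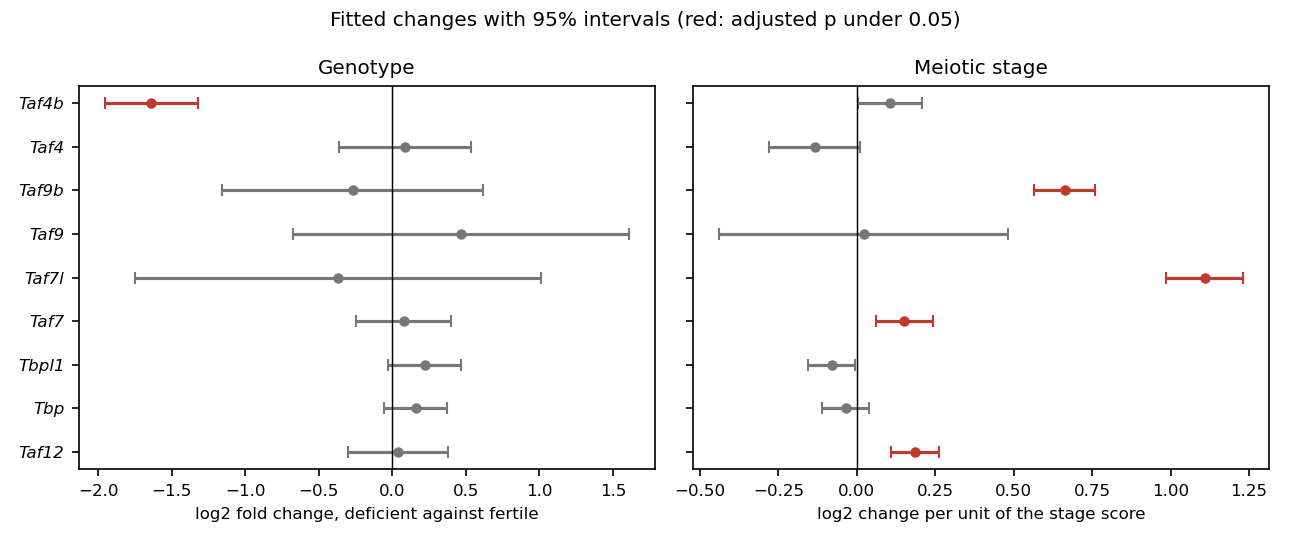
Fitted log2 changes of the 9 genes with 95% intervals (horizontal axes, each with its own scale) for deficient against fertile libraries on the left and per unit of the stage score on the right, with red for an edgeR adjusted p under 0.05. Taf4b at -1.64 is the only red gene on the left, and Taf7l, Taf9b, Taf12 and Taf7 are red on the right.

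The libraries differed widely in how far the cells had gone into meiosis. A stage score was taken as the mean log2 CPM of 37 meiotic prophase genes minus that of 25 pluripotency and early germ cell genes, neither list holding a member, so that 1 unit is a doubling of the first relative to the second. The deficient libraries scored 0.46, 1.48, -1.46 and 0.04, the heterozygous ones -1.46, 2.39, 1.99 and 1.93, and the wildtype ones 0.25 and 0.58. Of the 4 heterozygous libraries, 3 were the most advanced of all 10, and the genotypes were not balanced over stage, so slopes were fitted with genotype in the model. The score comes from the same libraries as the members, and depth and composition are shared. With it, 24.8% of all tested genes were called, 12.9% rising and 11.9% falling.

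Of the 9 members 4 rose with the stage score and none fell: Taf7l, Taf9b, Taf12 and Taf7. Taf7l was by far the steepest. Its deficient libraries stood at 172, 368, 44.1 and 104 CPM, the heterozygous ones at 22.5, 480, 350 and 348 CPM and the wildtype ones at 178 and 151 CPM. The lowest 2 libraries were those with the lowest stage scores, and the highest was the one with the highest score. The highest level was 21.3 times the lowest, a range wider than that of 99.3% of tested genes. The slope was 1.11 on the log2 scale per unit of score (SE 0.06, edgeR adjusted p = 8.83e-06), and 82 of the 20317 genes had a steeper one. Over the observed range of scores this slope amounts to 19.3-fold.

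Taf9b had the next steepest slope of the 9 genes. Its deficient libraries stood at 29.6, 43.2, 13.99 and 27.6 CPM, the heterozygous ones at 10.02, 64.0, 54.3 and 58.2 CPM and the wildtype ones at 22.4 and 28.6 CPM. The 3 advanced heterozygous libraries were the highest, and heterozygous replicate 1 and deficient replicate 3 the lowest. Its slope was 0.66 (SE 0.05, adjusted p = 2.91e-05), and 484 genes had a steeper one. Across the observed scores this is 5.86-fold.

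The slopes of Taf12 and Taf7 were much shallower. Taf12 ran from 40.6 CPM in heterozygous replicate 1 through a median of 55.9 to 72.7 CPM in heterozygous replicate 3, with a slope of 0.18 (SE 0.04, adjusted p = 0.00673). Taf7, which binds and restrains the largest TFIID subunit Taf1, ran from 54.7 through 72.4 to 94.9 CPM, with a slope of 0.15 (SE 0.05, adjusted p = 0.0369). The call of Taf7 was lost when any of 7 libraries was left out (all but deficient replicate 4 and heterozygous replicates 3 and 4), at adjusted p up to 0.256.

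Without heterozygous replicate 1, 2 members were called, Taf7l at 1.04 (adjusted p = 0.00400) and Taf9b at 0.56 (adjusted p = 0.0105), and Taf12 at 0.13 was not (adjusted p = 0.379). In that fit edgeR called 664 of 19975 genes. Leaving out heterozygous replicate 1 and deficient replicate 3 together, a choice made after seeing the data, gave slopes of 1.09 for Taf7l, 0.45 for Taf9b, 0.15 for Taf12 and 0.04 for Taf7, and edgeR called no member and no gene (adjusted p = 0.349 to 0.973 for these 4). At an unadjusted p under 0.05 were 2 members, Taf7l and Taf9b, and 1568 of 20137 genes, and limma voom called 1 member and 37 genes. With litter date in the model the slope of Taf7l was 1.08.

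**Figure D4:**
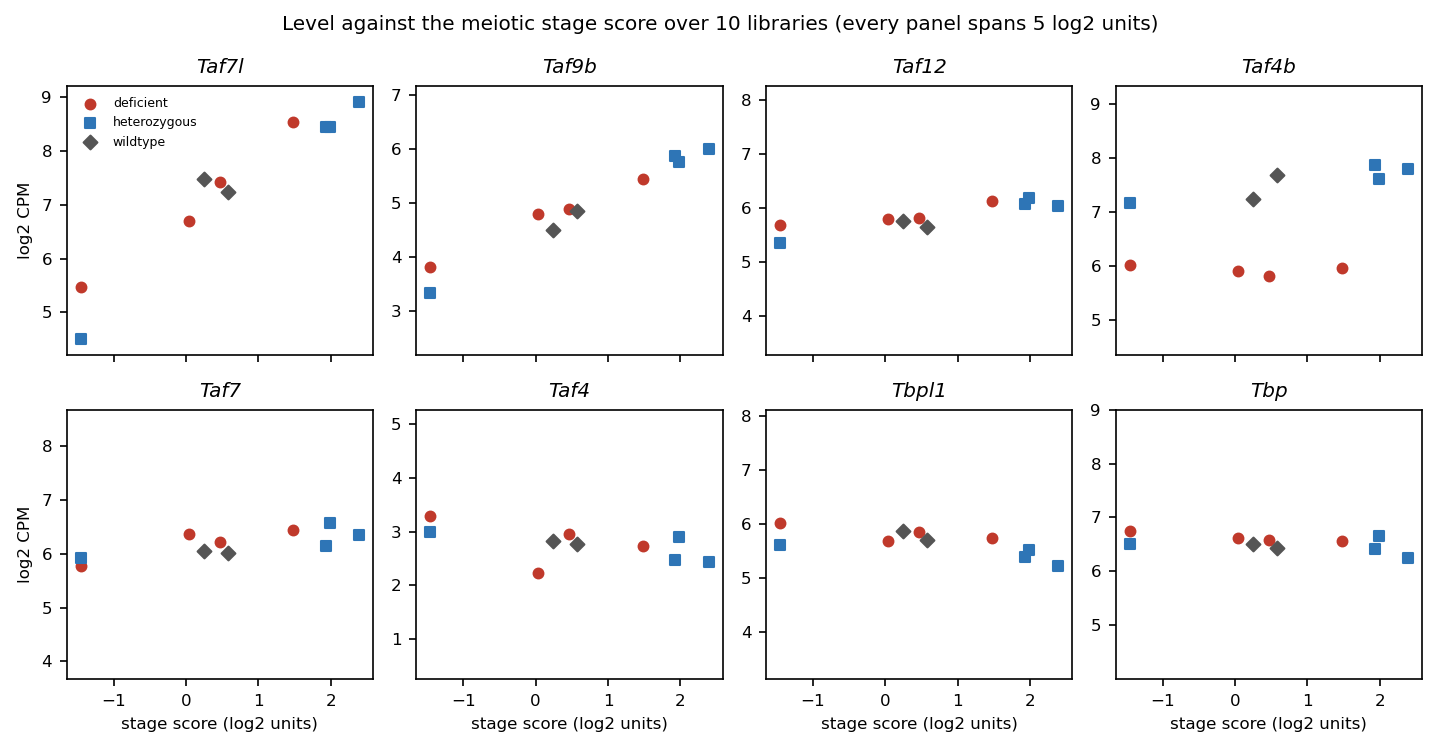
Level (log2 CPM, vertical axis, 5 log2 units in each panel) against the stage score (log2 units, horizontal axis) for 8 members, 1 point per library, with colour and marker for genotype. Taf7l and Taf9b are lowest in the 2 libraries with the lowest scores and highest in the library with the highest score, and the deficient points of Taf4b lie below the fertile ones.

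The other 5 members were not called for stage by edgeR in the model with genotype. Taf4b had a slope of 0.10 with a 95% interval of 0.0031 to 0.21 (adjusted p = 0.173), Taf4 of -0.13 (-0.28 to 0.01, adjusted p = 0.222), Tbpl1 of -0.08 (-0.15 to -0.01, adjusted p = 0.158) and Tbp of -0.04 (-0.11 to 0.04, adjusted p = 0.548). The intervals of Taf4b and Tbpl1 exclude no change only because they use a normal multiple of the SE. By the edgeR F test their unadjusted p-values were 0.0697 and 0.0612. Taf9 had 0.02 (-0.44 to 0.48) on its few counts. With litter date as a term edgeR called Taf4b at 0.15 (adjusted p = 0.0450), among 4062 of 20317 genes. Limma voom with sample weights called Taf4b at 0.14 (adjusted p = 0.0192) and Tbpl1 at -0.09 (adjusted p = 0.0386). That tool called 7308 of 20317 genes for stage, where edgeR called 5044. Without heterozygous replicate 1 the slope of Taf4b was -0.02. In log2 CPM Tbp had the narrowest range of the 9 genes, with only 7.85% of tested genes varying less over the 10 libraries. In TPM it did not, since its highest library over its lowest exceeded that of Tbpl1, Taf4, Taf7, Taf12 and Taf9.

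The paralogue ratios followed stage in 2 of the 4 pairs. The log2 TPM ratio of Taf7l over Taf7 correlated with the stage score over the 10 libraries at Pearson r = 0.949 (permutation p = 8e-05, adjusted 0.00032) and Spearman rho = 0.927 (permutation p = 0.00034, adjusted 0.00136). For Taf9b over Taf9 Pearson r was 0.926 (permutation p = 0.00066, adjusted 0.00132) and Spearman rho was 0.891 (permutation p = 0.0014, adjusted 0.0028). Without heterozygous replicate 1 and deficient replicate 3, the 2 libraries farthest from the median score, r was 0.909 for the first pair (adjusted p = 0.00675) and 0.785 for the second (adjusted p = 0.0631). In these 8 libraries rho was 0.857 (exact permutation, adjusted p = 0.0429) and 0.81 (exact permutation, adjusted p = 0.0436), so the second pair passed by rank and not by Pearson r. Over the 6 fertile libraries r was 0.947 for the first pair and 0.963 for the second (exact permutation, adjusted p = 0.0444 for both). Their rho there was 0.886 and 0.771 (exact permutation, adjusted p = 0.133 and 0.181), so neither passed by rank. Taf4b over Taf4 had r = 0.566 (permutation p = 0.0966, adjusted 0.129) and rho = 0.636 (permutation p = 0.0551, adjusted 0.0735), with the low deficient libraries among the points. In the 6 fertile libraries alone its r was 0.836 (exact permutation p = 0.0444, adjusted 0.0593) and its rho 0.714 (exact permutation p = 0.136, adjusted 0.181). Tbpl1 over Tbp had r = -0.148 (permutation p = 0.684, adjusted 0.684) and rho = -0.0545 (permutation p = 0.893, adjusted 0.893), and with CPM in place of TPM its r was -0.586 (adjusted p = 0.0868). Litter dates held 2 or 4 libraries each, so no correlation was taken within a single date. With ratio and score both centred on each litter date, an alternative chosen after these results were known, r was 0.983 for Taf7l over Taf7 and 0.921 for Taf9b over Taf9 (exact permutation within dates, adjusted p = 0.00694 and 0.0156). On the same footing r was 0.594 for Taf4b over Taf4 and -0.0546 for Tbpl1 over Tbp (exact permutation within dates, adjusted p = 0.0903 and 0.907).

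The promoters of Taf7l, Taf9b and Taf12, which rose with stage, can be set side by side. Taf7, which also rose, was not searched. The windows below run from 250 bases before to 50 bases after the RefSeq start on GRCm38.p6, and they are shown because each holds the E-box CACGTG, printed in capitals, a palindrome bound by helix-loop-helix factors. They are Taf7l (chrX:134476441-134476740, minus strand), Taf9b (chrX:106221109-106221408, minus strand) and Taf12 (chr4:132274125-132274424, plus strand), each read 5′ to 3′ along the gene.
Taf7l: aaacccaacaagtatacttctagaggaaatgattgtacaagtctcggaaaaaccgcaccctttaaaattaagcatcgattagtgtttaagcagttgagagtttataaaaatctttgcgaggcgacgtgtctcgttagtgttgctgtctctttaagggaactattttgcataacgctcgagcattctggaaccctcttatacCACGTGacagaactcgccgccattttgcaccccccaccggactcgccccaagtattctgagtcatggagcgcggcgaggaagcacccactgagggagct
Taf9b: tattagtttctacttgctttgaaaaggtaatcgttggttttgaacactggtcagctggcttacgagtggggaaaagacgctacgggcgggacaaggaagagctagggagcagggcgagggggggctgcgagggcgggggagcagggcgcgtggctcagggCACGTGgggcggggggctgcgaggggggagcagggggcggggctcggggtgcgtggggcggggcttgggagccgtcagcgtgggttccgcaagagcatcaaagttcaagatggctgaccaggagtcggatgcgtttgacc
Taf12: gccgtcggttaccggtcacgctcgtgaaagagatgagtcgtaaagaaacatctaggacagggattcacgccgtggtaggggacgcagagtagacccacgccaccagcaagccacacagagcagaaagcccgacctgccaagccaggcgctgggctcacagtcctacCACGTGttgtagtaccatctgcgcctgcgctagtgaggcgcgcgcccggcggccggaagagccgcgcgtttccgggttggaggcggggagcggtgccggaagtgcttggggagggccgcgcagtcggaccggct

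The E-box begins 49 bases before the start in Taf7l, 90 in Taf9b and 84 in Taf12. It was not in the windows of Taf4, Taf9, Tbpl1 or Tbp, nor in a second RefSeq window of Taf9b. The other 2 members, Taf4b and Taf7, were not searched, so not every member that rose was examined. Of all 32817 RefSeq windows of this length 7.15% hold CACGTG. Among tested genes with a window it was in 11.2%, and in 10.0% of those called as rising with stage, 14.1% of those called as falling and 10.9% of those not called. The share was thus not higher among genes that rose. Searches on both strands for TATAAA (in 13.6% of windows), CCAAT (37.4%), GGGCGG (35.6%) and TCCCGC (6554 windows) gave 2 overlapping TATAAA matches in Taf7l, 5 of GGGCGG and 1 of TCCCGC in Taf9b, 1 of them overlapping a GGGCGG match, and none in Taf12. Taf4 had 6 matches to GGGCGG and 2 to CCAAT. Taf9 and Tbpl1 had 2 matches to GGGCGG each, and Tbp had 1. These matches are letters in a window and not mapped binding sites.

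None of the other TFIID subunits tested was called by genotype, though some varied widely between libraries. Taf5 spanned 87.9 to 270 CPM and Taf10 51.6 to 160 CPM. Of 11 listed, 9 were tested and 0 were called by edgeR for deficient against fertile (0 at an unadjusted p under 0.05, median change 0.13 against -0.01 for all genes). Those with the smallest p were Taf5, a scaffold subunit, at 0.41 (adjusted p = 0.904) and Taf10, a histone-fold subunit, at 0.26 (adjusted p = 0.904). With stage, where 24.8% of all tested genes were called, 2 of 9 rose, Taf11 at 0.26 (SE 0.04, adjusted p = 0.00105) and Taf6, the histone-fold partner of Taf9 and Taf9b, at 0.14 (SE 0.04, adjusted p = 0.0295), with a list median of 0.07. Tbpl2, the Tbp relative of growing oocytes, had 0 or 1 counts in each library. SAGA is a coactivator complex that shares Taf9, Taf9b, Taf10 and Taf12 with TFIID. Of its 18 other listed genes 0 were called by genotype (1 at an unadjusted p under 0.05), while 2 rose and 6 fell with stage (12.9% and 11.9% of all tested genes), with a list median of -0.07. The acetyltransferase gene Kat2b fell with stage, at -0.40 (SE 0.05, adjusted p = 0.000332), as did the deubiquitinase gene Usp22 at -0.30 (SE 0.04, adjusted p = 0.000719). Of 18 genes for the other general transcription factors 0 were called by genotype (1 at an unadjusted p under 0.05), and 1 rose and 3 fell with stage against those same shares, among the latter the TFIIH helicase gene Ercc3 at -0.11 (adjusted p = 0.0406) and the TFIIF gene Gtf2f2 at -0.10 (adjusted p = 0.0418). The TFIIA relative Gtf2a1l, known from testis, had 16 to 52 counts.

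The genes most like each germline paralogue were ranked by Pearson r of log2 CPM over the 10 libraries, among 10163 genes with a mean of at least 5 CPM. For Taf7l they were Tex101 (r = 0.998), Arpc1a (0.994) and Xlr4b (0.993), and for Taf9b they were Hspa4l (0.994), Btbd18 (0.994) and Msh4 (0.992), of which Msh4 is in the prophase list of the stage score. For Tbpl1 they were Fastkd5 (0.970), Tmem150a (0.963) and Slc46a3 (0.956). Taf4b had lower values, 0.927 for Akap9, 0.921 for Itfg2 and 0.899 for N6amt1. Over the 6 fertile libraries alone its nearest genes were others, Lingo1 (0.992), Galnt16 (0.982) and Rad51d (0.976). Among the members, Taf9b and Taf7l were the most alike pair (r = 0.963), followed by Taf9b and Taf12 (0.915) and Taf7l and Taf12 (0.904), and Tbpl1 was most like Tbp (0.726). These points share libraries, depth and stage, and the values are descriptions.

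The authors' deposited table of a DESeq2 comparison, whose groups its headers do not name, lists Taf4b at -1.66 with an adjusted p of 1.25e-13. In the authors' deposited table the other 8 members had adjusted p-values from 0.815 to 0.992, with -0.83 for Taf7l, -0.48 for Taf9b and 0.23 for Tbpl1.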

How the data were processed

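Bulk RNA-seq of 10 libraries was used. Reads were processed with Trim Galore 0.5.0, FastQC 0.11.5, HISAT2 2.1.0 and SAMtools 1.9 on GRCm38, per the submitters' processing notes, which also name featureCounts (Subread 1.6.2), StringTie 1.3.3b and DESeq2. The deposited gene counts are whole read counts, and the deposited TPM values are scaled by gene length and by library. The DESeq2 table deposited by the authors gives per gene a signal (the mean of scaled counts), a log2 fold change, a Wald score, a p-value and an adjusted p-value, per the file headers. Settings of the counting are not given in these sources.

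Counts were filtered with filterByExpr by genotype, scaled by TMM and fitted in 1 edgeR 4.0.16 quasi-likelihood model over the 10 libraries (R 4.3.3), with Benjamini-Hochberg adjustment over 20317 genes and calls at an adjusted p under 0.05. Fertile is the equally weighted mean of the heterozygous and wildtype groups. SE comes from the F statistic, and 95% intervals use a normal multiple of it, which makes them narrower than the F test would. Log2 CPM has a prior count of 2. TPM ratios were tested with scipy 1.17.1. Correlation p-values over 10 libraries used 100000 resamples. Alternatives used DESeq2 1.42.0 and limma 3.58.1. The edgeR fits were tested on simulated counts, with 1 spread set for every gene and without the stage scores of these libraries. That setting is simpler than these data, and its outcome is not given here. No pair of libraries agreed within sampling noise (lowest chi-square per degree of freedom 9.61). Members, lists and motifs were chosen with earlier results of these data known. The named genes were all 9 members, the 3 genes most like each germline paralogue, up to 2 per list with the smallest p for genotype and for stage, and Gm23935, Pecam1, Cdh5, Ak6, Tbpl2 and Gtf2a1l, which were chosen after their values were seen.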

Additional observations from a re-analysis of the deposited data

Results flagged for a closer look

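In the deficient and heterozygous groups, of 4 libraries each, a value was singled out by its gap to the nearest other library. The gap, divided by the group's range, had to pass Dixon's 95% critical value. Chance marks about 1 in 20 sets of values, and 44 were searched. These sets hold the same genes in CPM, in TPM and in ratios, so they are not independent. Heterozygous replicate 1 was low among heterozygous libraries for Taf7l at 22.5 CPM (gap over range 0.895) and 21.3 TPM (0.903), for Taf9b at 10.0157 CPM (0.911) and 7.11 TPM (0.940), for Taf12 at 40.6 CPM (0.834), and for the log2 TPM ratio of Taf7l over Taf7 at -0.589 (0.831). Its stage score of -1.46 was also the lowest of the heterozygous libraries. Deficient replicate 1 was low among deficient libraries for Taf4b at 19.6 TPM (0.860), where the other 3 lay at 21.1 to 21.4.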

How the results depend on the processing

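Taf4b kept its direction against fertile and heterozygous libraries under every alternative run. The count of members called against fertile and against heterozygous libraries, 1 in each, was 0 with a litter date term and with TPM in limma at pseudocounts of 0.1 and 1. It was also 0 against fertile without the 3 libraries low in Gm23935. Leaving out 1 library gave 0 to 1 in both, and 0 to 1 against wildtype. Against wildtype 1 member was called with no count filter, DESeq2, limma voom or the stage covariate. Limma voom called 2 against heterozygous. With replicate number as a block 0 members were called against fertile and against heterozygous libraries, and 2 for stage (with 1369 of 20317 genes). Same-numbered libraries deviated together at correlations of -0.42 to 0.38, and differently numbered pairs were not compared. Whether a shared number marks a shared batch was not tested. Deficient replicate 1 and wildtype replicate 1 also shared the litter date of January 29. Called for stage were 2 to 4 members when 1 library was left out, 2 without heterozygous replicate 1, and 0 without it and deficient replicate 3. Over all genes, 664 (without heterozygous replicate 1) to 5743 (without heterozygous replicate 3) were called with 1 library left out. The main fit called 5044 of 20317. Limma voom called 6 members (Taf4b and Tbpl1 added) among 7308 of 20317 genes. The litter date term gave 5 (Taf4b added) among 4062 of 20317.

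Changes that turned sign were all short of the threshold, and the cause was not tested. For deficient against fertile, Taf12 was -0.0095 with limma voom, -0.0050 and -0.0057 with TPM at pseudocounts 0.1 and 1, -0.025 without the 3 libraries low in Gm23935, and -0.060 to 0.109 when 1 library was left out (negative without deficient replicate 2 or heterozygous replicate 1). Taf4 was -0.012 with the stage covariate and -0.084 to 0.245 over libraries left out (negative without deficient replicate 3). Tbp was -0.076 and -0.075 with TPM. Taf7 was -0.066 without the 3 libraries and -0.0044 without deficient replicate 2. The stage covariate gave 0.23 for Taf9b and 0.31 for Taf7l, and 0.21 and 0.66 against heterozygous libraries. Taf4b in heterozygous against wildtype was -0.056 to 0.34 over libraries left out (negative without wildtype replicate 1). Stage slopes of Taf4b were -0.016 to 0.154 over libraries left out (negative without heterozygous replicate 1), and that of Taf4 was 0.090 without it and deficient replicate 3. For Taf9 they turned to -0.0056 with pluripotency genes alone, -0.064 with no genotype term, -0.15 with the replicate block, -0.013 with limma voom, and -0.059 to 0.066 over libraries left out (negative without heterozygous replicate 1). The correlation of Tbpl1 over Tbp with stage was 0.0773 in fertile libraries, -0.311 to 0.101 over libraries left out (positive without heterozygous replicate 3) and 0.268 without the 3 libraries. Without these 3, Taf4b over Taf4 differed by -2.13 (adjusted exact permutation p = 0.190), and without the 2 libraries farthest in stage r of Taf9b over Taf9 was 0.785.

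Over all genes, DESeq2 called 8 against fertile, 224 against heterozygous and 1 against wildtype, and limma voom called 1, 3012 and 1, where edgeR called 1, 3 and 0. For heterozygous against wildtype edgeR called 1, DESeq2 488 and limma voom 1063. Depth limits Taf9 most, at 1 to 16 counts, and the 2 wildtype libraries limit every comparison with them.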

Other observations

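Stage slopes were also fitted separately in deficient and fertile libraries, a choice made after seeing the data. No member and none of 20317 genes was called by edgeR for a difference of slopes (0%, with 374 genes at an unadjusted p under 0.05). Taf4b had a slope of 0.17 (SE 0.05) in fertile and -0.03 (SE 0.08) in deficient libraries, a difference of -0.20 (SE 0.09, unadjusted p = 0.0514, adjusted p = 1.00). Taf7l rose in both, at 1.14 (SE 0.08, adjusted p = 0.000360) in fertile and 1.05 (SE 0.10, adjusted p = 0.00363) in deficient libraries. So did Taf9b, at 0.71 (SE 0.06, adjusted p = 0.000374) and 0.55 (SE 0.07, adjusted p = 0.00977). Taf12 had 0.21 (SE 0.05, adjusted p = 0.0248) in fertile and 0.14 (SE 0.07, adjusted p = 0.323) in deficient libraries. How many of all genes were called for each separate slope was not counted. The fertile slopes include heterozygous replicate 1 and the deficient ones deficient replicate 3, both at a stage score of -1.46. These separate slopes were not fitted without them.

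Pecam1, an adhesion gene of early germ cells and endothelium, fell with the stage score while Taf7l rose. It spanned 64.8 to 380 CPM, with a slope of -0.66 per unit (adjusted p = 8.38e-06).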
